A study of Mus musculus with 3 samples.

Results

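The genes described here are 7 genes of the extracellular matrix made by activated fibroblasts (FBs), namely *Postn*, *Cilp*, *Tnc*, *Sparc*, *Fn1*, *Ltbp2* and *Fap*, out of 27998 genes in each count matrix. They were taken by name, and their levels were read in each cell class and each phase, together with their co-detection in single FBs. The study separated nonmyocyte cells (non-CMs) from the ventricles of wild-type male C57BL/6J JCL mice by collagenase digestion and Percoll centrifugation, and sequenced them by droplet-based single-cell RNA-seq. One library came from hearts labelled healthy (0 weeks). The others came from hearts 2 weeks (adaptive hypertrophy phase) and 12 weeks (heart failure phase) after transverse aortic constriction (TAC). TAC is a ligature of the aortic arch that places the left ventricle under pressure overload. Surgery was performed at 8 weeks of age, and the number of mice per library is not given in the sources used here. With 1 library per phase, the phase and the library cannot be told apart, no test between phases was possible, and every interval below is a 95% interval that covers counting error only.

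The deposited matrices held 3900, 2239 and 802 cells at 0, 2 and 12 weeks, of which 3892, 2231 and 792 had at least 200 genes and were kept. A cell was placed in a class when it had at least 3 unique molecular identifiers (UMIs) of the marker list of that class and when these made up at least 75% of its marker UMIs over 4 lists (FBs, endothelial cells [ECs], mural cells and blood cells). No gene described here is in these lists. This gave 1263, 106 and 195 FBs with 4162428, 284391 and 640789 UMIs, and the median FB had 2960, 1646 and 2453 UMIs. FB markers left out of the gate (*Islr*, *Medag*, *Pcolce* and *Serpinf1*) summed to levels of 2686, 3087 and 3068 CPM in FBs (CPM, UMIs per 1000000 UMIs of the class) and to 71.8, 64.7 and 133 CPM in ECs. Each of these genes was higher in FBs than in ECs in every library. Within FBs they did not move together, since *Medag* had 261, 87.9 and 198 CPM and *Serpinf1* 992, 1463 and 1330 CPM. The FBs of the adaptive hypertrophy phase stood apart in their median mitochondrial share, which was 6.67% against 2.59% and 4.67% in the healthy and heart failure libraries. Markers of the other classes of the gate were low in FBs, where the lists of ECs, mural cells and blood cells summed to between 127 and 173, 72.1 and 108, and 24.6 and 145 CPM. Neural markers, which the gate does not use, summed to 40.4, 1013 and 70.2 CPM in FBs and were found in 24, 9 and 7 of them. Libraries shared between 1 and 5 cell barcodes.

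Cardiac FBs lay down and renew the matrix between the cells of the heart, and under pressure overload they become activated and make more of it. Matricellular proteins (*Postn*, *Cilp*, *Tnc* and *Sparc*) bind collagens and cell surface receptors and are made mainly during growth and repair, fibronectin forms fibrils on which other matrix proteins assemble, and latent TGF-beta binding proteins belong to the fibres that hold elastin and growth factors. *Postn*, which encodes periostin, is widely used as a marker of activated cardiac FBs, and *Fap* encodes a serine protease of the FB surface.

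The genes lie on different chromosomes of GRCm38 (mm10), at chr3:54361109-54391037 (*Postn*, plus strand), chr9:65265180-65280605 (*Cilp*, plus strand), chr4:63959785-64047015 (*Tnc*, minus strand), chr11:55394500-55423183 (*Sparc*, minus strand), chr1:71585520-71653200 (*Fn1*, minus strand), chr12:84783212-84876532 (*Ltbp2*, minus strand) and chr2:62500943-62574075 (*Fap*, minus strand). RefSeq promoter windows of GRCm38.p6, from 250 bases before to 50 bases after a start site, matched 5 of the 7 genes, but not *Fn1* and *Fap*. The windows of *Postn* (chr3:54360857-54361156), *Cilp* (chr9:65264930-65265229) and *Ltbp2* (chr12:84876442-84876741, minus strand) are shown because these genes had higher FB levels than the healthy library at both later phases, as given below. Capitals mark matches, on either strand, to 5 searched motifs, namely the TATA box (TATAAA), the TEAD motif (GGAATG), the SMAD motif (GTCTG), the AP-1 motif (TGANTCA) and the CCAAT box (CCAAT), and no matches overlapped in these windows.
Postn: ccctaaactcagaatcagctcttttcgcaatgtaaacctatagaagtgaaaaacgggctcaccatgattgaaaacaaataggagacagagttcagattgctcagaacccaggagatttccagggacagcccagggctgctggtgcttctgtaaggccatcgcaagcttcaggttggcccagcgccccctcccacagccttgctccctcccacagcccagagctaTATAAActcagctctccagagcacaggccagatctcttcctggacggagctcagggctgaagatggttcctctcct
Cilp: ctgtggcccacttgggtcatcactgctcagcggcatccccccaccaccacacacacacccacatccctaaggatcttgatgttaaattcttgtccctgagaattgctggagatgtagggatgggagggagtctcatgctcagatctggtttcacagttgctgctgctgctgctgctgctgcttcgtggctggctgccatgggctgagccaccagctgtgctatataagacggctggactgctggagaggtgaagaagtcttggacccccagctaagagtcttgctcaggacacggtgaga
Ltbp2: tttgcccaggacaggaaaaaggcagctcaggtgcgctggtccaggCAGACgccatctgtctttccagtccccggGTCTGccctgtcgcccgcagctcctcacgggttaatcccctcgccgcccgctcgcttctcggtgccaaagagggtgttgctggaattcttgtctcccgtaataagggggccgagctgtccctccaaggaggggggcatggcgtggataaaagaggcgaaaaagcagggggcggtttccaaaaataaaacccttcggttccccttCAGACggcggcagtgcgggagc
The *Postn* window shown, which lies at the GENCODE gene start, held a TATAAA at position -26, counted from 0 at the start site, and no other match. A second RefSeq window of *Postn* (chr3:54359017-54359316), 1842 bases from the gene start, held no TATAAA but a GTCTG match at -191 and a CCAAT match at 24. The *Ltbp2* window held 3 matches to GTCTG, at positions -205, -176 and 28, and the *Cilp* window held none of the 5 motifs. Of 32851 promoter windows of this length, 13.6% held TATAAA, 49.6% GTCTG, 14.7% GGAATG, 7.81% TGANTCA and 37.4% CCAAT, so that a match to GTCTG was found in about as many windows as it was missing from. These matches are descriptions of the letters.

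*Postn* was an FB transcript in every library and was highest in the adaptive hypertrophy phase. In FBs it had 3183 UMIs in the healthy library, 1158 at 2 weeks and 647 at 12 weeks. Relative to all UMIs of FBs, these were levels of 765 CPM (738 to 792), 4072 CPM (3841 to 4313) and 1010 CPM (933 to 1091). The level of the adaptive hypertrophy phase was 5.32 times the healthy level (4.97 to 5.70), and the level of the heart failure phase was 1.32 times the healthy level (1.21 to 1.44). The heart failure library thus lay much nearer to the healthy library than to the other TAC library, at 0.248 times the level of the adaptive hypertrophy phase (0.225 to 0.273). Without cells over 10% mitochondrial UMIs, the ratio of the adaptive hypertrophy phase to the healthy phase was 5.17.

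A larger share of FBs had *Postn* in the adaptive hypertrophy phase, and those that had it held more of it. To compare cells at equal depth, each cell was thinned to 1000 UMIs and shallower cells were left out, which kept 1263, 77 and 166 FBs. At this depth, *Postn* was found in 25.3% of healthy FBs (23.0% to 27.8%), in 72.7% of FBs at 2 weeks (61.4% to 82.3%) and in 33.1% at 12 weeks (26.03% to 40.85%). Without thinning, the shares were 36.0%, 73.6% and 42.1%. The same thinned share in ECs, which served as a measure of free RNA, was 0.785%, 1.09% and 1.07%. FBs with the gene held on average 2.42, 5.41 and 3.02 *Postn* UMIs per 1000. At least 5 *Postn* UMIs per 1000 were found in 40 healthy FBs (3.17%), in 25 FBs at 2 weeks (32.5%) and in 10 FBs at 12 weeks (6.02%). In each library *Postn* was concentrated in a minority of cells, and the 10% of FBs with the most *Postn* UMIs held 72.8%, 58.9% and 70.6% of all *Postn* UMIs of FBs.

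**Figure D1:**
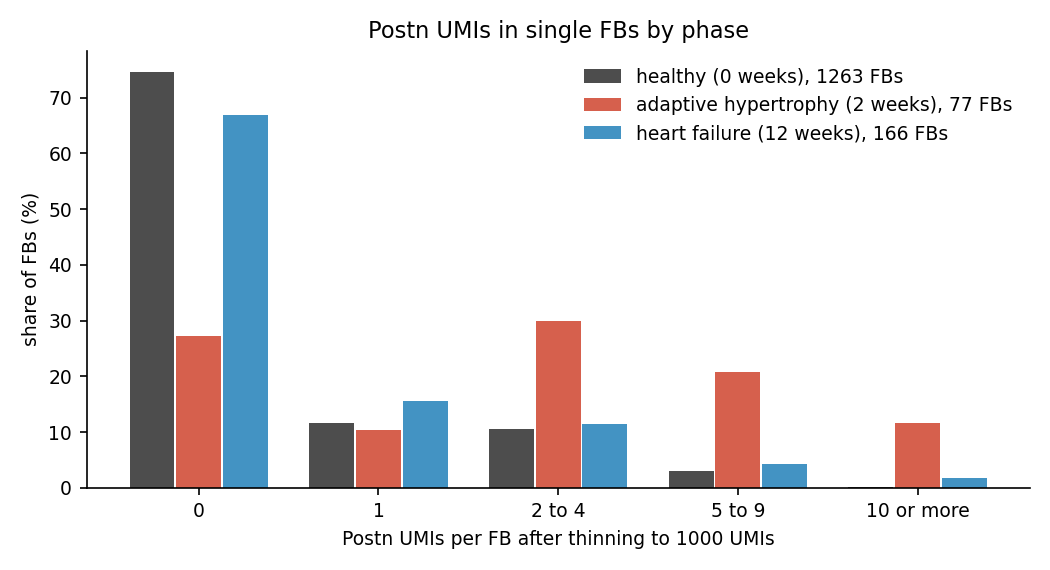
Share of FBs (y axis, percent) by their number of *Postn* UMIs after thinning to 1000 UMIs (x axis), with a bar for each library (grey, healthy; red, adaptive hypertrophy; blue, heart failure). FBs without a *Postn* UMI made up 74.7% and 66.9% of the healthy and heart failure libraries and 27.3% of the adaptive hypertrophy library, where 11.7% of FBs held 10 or more.

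Outside FBs, *Postn* was low. ECs had 8.06, 10.2 and 19.9 CPM and blood cells 8.93, 9.88 and 39.0 CPM at 0, 2 and 12 weeks. In blood cells the heart failure level was 4.37 times the healthy level (2.09 to 8.79), on 14 UMIs, and there the summed level of the FB gate markers was 226, 54.3 and 334 CPM across the phases. In ECs the heart failure level was 2.47 times the healthy level (1.01 to 5.50), on 9 UMIs. The FB gate markers summed to 237, 47.0 and 356 CPM in ECs. The part of free FB RNA in these differences was not tested. Mural cells, the pericytes and smooth muscle cells around vessels, had 43.3 CPM (31.4 to 58.4), 69.1 CPM (35.7 to 121) and 69.8 CPM (28.1 to 144). In the healthy library 6.40% of thinned mural cells had a *Postn* UMI (3.90% to 9.81%), above the 0.785% of ECs (0.340% to 1.54%). The healthy FB level of *Postn* was 94.9 times the EC level (63.7 to 148), 17.6 times the mural level (13.1 to 24.4) and 85.6 times the level of blood cells (57.5 to 134).

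*Cilp* was higher in FBs at both TAC phases. It encodes cartilage intermediate layer protein, a secreted matrix protein that binds TGF-beta. Its levels in FBs were 294 CPM (278 to 311) in the healthy library, 1076 CPM (959 to 1204) at 2 weeks and 604 CPM (545 to 667) at 12 weeks, from 1224, 306 and 387 UMIs. These were ratios to healthy of 3.66 (3.22 to 4.15) and 2.05 (1.83 to 2.30). The second ratio lies close to 2-fold and was 1.61 when the 5 FBs with the most *Cilp* UMIs were left out of each library. The share of thinned FBs with *Cilp* was 12.7% (10.9% to 14.6%), 40.3% (29.2% to 52.1%) and 25.9% (19.4% to 33.3%). *Cilp* was nearly absent from the other classes, with 0 to 7 UMIs in each class of each library, and healthy FBs had 146 times the level of ECs (66.9 to 399).

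*Tnc* was scarce in all libraries. It encodes tenascin-C, a glycoprotein that is made in developing and injured tissue. FBs had 76, 16 and 3 *Tnc* UMIs, or 18.3 CPM (14.4 to 22.8), 56.3 CPM (32.2 to 91.4) and 4.68 CPM (0.966 to 13.7). At 2 weeks the ratio to healthy was 3.08 (1.68 to 5.33), and at 12 weeks it was 0.256 (0.0517 to 0.778). The higher level at 2 weeks lay in few cells, since 7 of 106 FBs held all 16 UMIs, and without the 5 highest FBs of each library the ratio was 0.875. The share of thinned FBs with *Tnc* was 0.713%, 3.90% and 1.205%, from 9, 3 and 2 cells. No other class had more than 8 *Tnc* UMIs in any library.

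*Sparc* was abundant in FBs, ECs and mural cells, and it was lower in the heart failure phase. It encodes SPARC (osteonectin), a collagen-binding protein of FBs and ECs. In FBs its levels were 6137 CPM (6062 to 6213), 7746 CPM (7426 to 8077) and 2502 CPM (2381 to 2627), with ratios to healthy of 1.26 (1.21 to 1.32) and 0.408 (0.387 to 0.429). Nearly all thinned FBs had the gene in the healthy library (96.0%) and at 2 weeks (96.1%), against 76.5% at 12 weeks. ECs had 3714, 3389 and 1848 CPM, and their heart failure level was 0.498 times the healthy level (0.463 to 0.534). Mural cells had 1521, 1463 and 1247 CPM, a ratio of 0.820 at 12 weeks (0.678 to 0.985). The lower *Sparc* level at 12 weeks was therefore found in FBs, ECs and mural cells, although it was less than 2-fold in mural cells. Blood cells had 85.9, 34.6 and 91.9 CPM.

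*Fn1*, which encodes fibronectin, was present in all classes, and its ratios between phases were not the same in each. FBs had 153 CPM (141 to 165) in the healthy library, 499 CPM (421 to 588) at 2 weeks and 65.5 CPM (47.2 to 88.6) at 12 weeks, from 637, 142 and 42 UMIs. The ratios to healthy were 3.26 (2.70 to 3.92) and 0.428 (0.306 to 0.586), so that the level was higher than healthy in the adaptive hypertrophy phase and lower in the heart failure phase. The share of thinned FBs with *Fn1* was 12.03%, 29.9% and 7.23%. ECs had 84.6, 121 and 146 CPM, with ratios of 1.43 (1.22 to 1.68) and 1.73 (1.29 to 2.27). Mural cells had 192, 190 and 89.8 CPM, and the heart failure level rested on 9 UMIs. In the healthy library the FB level was 1.81 times the EC level and 0.795 times the mural level. In the adaptive hypertrophy library it was 4.12 times the EC level (3.38 to 4.99) and 2.63 times the mural level (1.79 to 3.96). In the heart failure library it was below the other classes, at 0.449 times the EC level (0.298 to 0.671), 0.453 times the level of blood cells (0.294 to 0.693) and 0.730 times the mural level (0.350 to 1.71), where the last interval holds 1.

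Blood cells had the largest *Fn1* ratios of the 4 classes. Their levels were 32.7 CPM (26.3 to 40.3), 395 CPM (336 to 461) and 145 CPM (108 to 190), or 12.1 times (9.25 to 15.8) and 4.42 times (3.08 to 6.30) the healthy level. *Fn1* was found in 27 of 933, 35 of 187 and 14 of 158 blood cells, and 5 cells held 52 of 88, 79 of 160 and 36 of 52 of its UMIs. Without these 5 cells of each library the ratios were 15.6 and 3.60. Of 8 genes of blood cell types, chosen with their values known, *Ccr2* and *Ly6c2* (monocytes) and *Spp1* (osteopontin) were found in a larger share of blood cells with *Fn1* than of the others in each library, without thinning. *Ccr2* was present in 44.4%, 51.4% and 57.1% of blood cells with *Fn1* and in 7.62%, 27.0% and 9.72% of those without. *Ly6c2* was present in 25.9%, 28.6% and 50.0% against 0.883%, 7.89% and 4.17%. The other 5 genes had no common direction. *Adgre1*, a macrophage gene, was present in 44.4%, 14.3% and 50.0% of blood cells with *Fn1* against 53.5%, 30.3% and 9.72% of those without, and *S100a8*, a neutrophil gene, in 7.41%, 0% and 0% against 1.88%, 4.61% and 18.1%. The makeup of the blood cell class differed between the libraries, as *Lyve1*, a gene of resident macrophages, had 179, 9.88 and 52.9 CPM in it and *Cd79a*, a B cell gene, 48.7, 7.41 and 849 CPM. The part of this makeup in the *Fn1* ratios was not tested.

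*Ltbp2* had nearly the same ratio as *Postn* at 2 weeks and was found almost nowhere outside FBs. It encodes a latent TGF-beta binding protein of elastic fibres that does not itself bind latent TGF-beta. FBs had 79.5 CPM (71.2 to 88.6), 426 CPM (353 to 508) and 164 CPM (134 to 198), from 331, 121 and 105 UMIs. The ratios to healthy were 5.35 (4.31 to 6.61) and 2.06 (1.64 to 2.57), and the latter was 1.53 without the 5 FBs with the most *Ltbp2* UMIs of each library. Thinned FBs had the gene in 5.46% (4.28% to 6.86%), 23.4% (14.5% to 34.4%) and 16.3% (11% to 22.8%) of cells. Mural cells had 0 UMIs in each library, which allows up to 3.02, 17.3 and 29.9 CPM, so that the FB level was at least 26.3-fold higher in the healthy library, 24.6-fold at 2 weeks and 5.47-fold at 12 weeks, against the level of 3 counts in mural cells. ECs and blood cells had from 1 to 3 UMIs per library.

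*Fap* was low in FBs, and no difference between phases was detectable at this depth. FBs had 114, 6 and 12 *Fap* UMIs, or 27.4 CPM (22.6 to 32.9), 21.1 CPM (7.74 to 45.9) and 18.7 CPM (9.68 to 32.7). The ratios to healthy were 0.770 (0.277 to 1.73) and 0.684 (0.343 to 1.24), and both intervals hold 1 and exclude 2. On so few UMIs the ratio at 2 weeks depended on the cells kept, and it was 0.467 without cells over 10% mitochondrial UMIs. Mural cells had 11.1, 11.5 and 9.98 CPM, from 11, 2 and 1 UMIs, and ECs and blood cells had 0 to 5 UMIs per library.

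**Figure D2:**
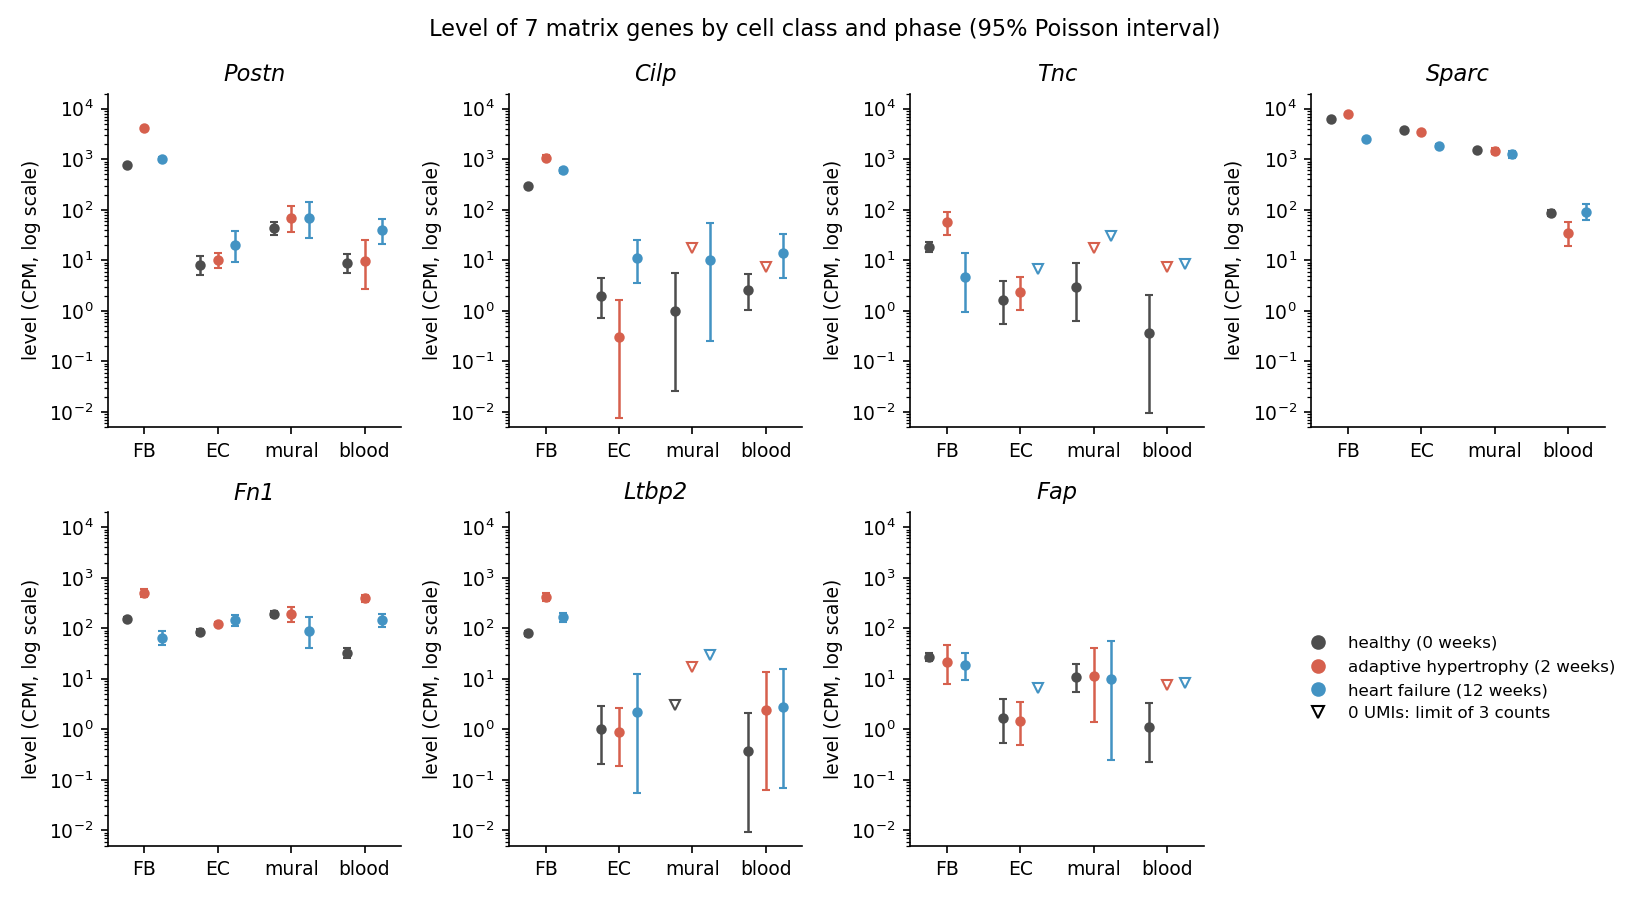
Level of each of the 7 genes (CPM, log scale) in FBs, ECs, mural cells and blood cells of the healthy (grey), adaptive hypertrophy (red) and heart failure (blue) libraries, with 95% Poisson intervals; open triangles mark classes with 0 UMIs at the level of 3 counts. *Postn*, *Cilp* and *Ltbp2* stand far above the other classes in FBs, whereas *Sparc* and *Fn1* were found in all of them, and *Fn1* in blood cells went from 32.7 CPM in the healthy library to 395 CPM at 2 weeks.

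Counted together, 5 of the 7 genes (*Postn*, *Cilp*, *Tnc*, *Fn1* and *Ltbp2*) were at least 2-fold higher in FBs at 2 weeks than in the healthy library, against 10.4% of the genes that had 20 or more UMIs in the compared groups together. None of the 7 was at most 0.5-fold, against 12.8% of genes. At 12 weeks against healthy, 2 of 7 (*Cilp* and *Ltbp2*) were at least 2-fold higher, against 6.96% of genes, and 3 of 7 (*Tnc*, *Sparc* and *Fn1*) were at most 0.5-fold, against 6.94% of genes. Between the TAC phases, *Tnc* and *Fap* had too few UMIs, and of the other 5 genes 4 (*Postn*, *Sparc*, *Fn1* and *Ltbp2*) were at most 0.5-fold at 12 weeks against 2 weeks, where 6.88% of genes were, and 0 were at least 2-fold higher, where 7.81% were. *Cilp* was in between, at 0.561 times (0.482 to 0.654). The median log2 ratio of the 7 genes was 1.71 at 2 weeks and -0.55 at 12 weeks against healthy, and that of all genes tested was 0.01 and 0.03. The median of the 7 genes is the value of *Fn1* at 2 weeks and of *Fap* at 12 weeks. The *Fap* value rested on 12 UMIs at 12 weeks, and its ratio interval (0.343 to 1.24) holds 1. Over 882 genes with at least 50 UMIs in each group, the median ratio at 2 weeks was 1.07 (0.10 on the log2 scale), and relative to it the *Postn* ratio was 4.96 and the same 5 genes were at least 2-fold higher. In the healthy library, 5 of 7 genes were at least 2-fold higher in FBs than in ECs (18.7% of genes), the exceptions being *Sparc* and *Fn1*. All but *Fn1* were so against mural cells (21.1% of genes), and all 7 against blood cells (35.2% of genes).

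**Figure D3:**
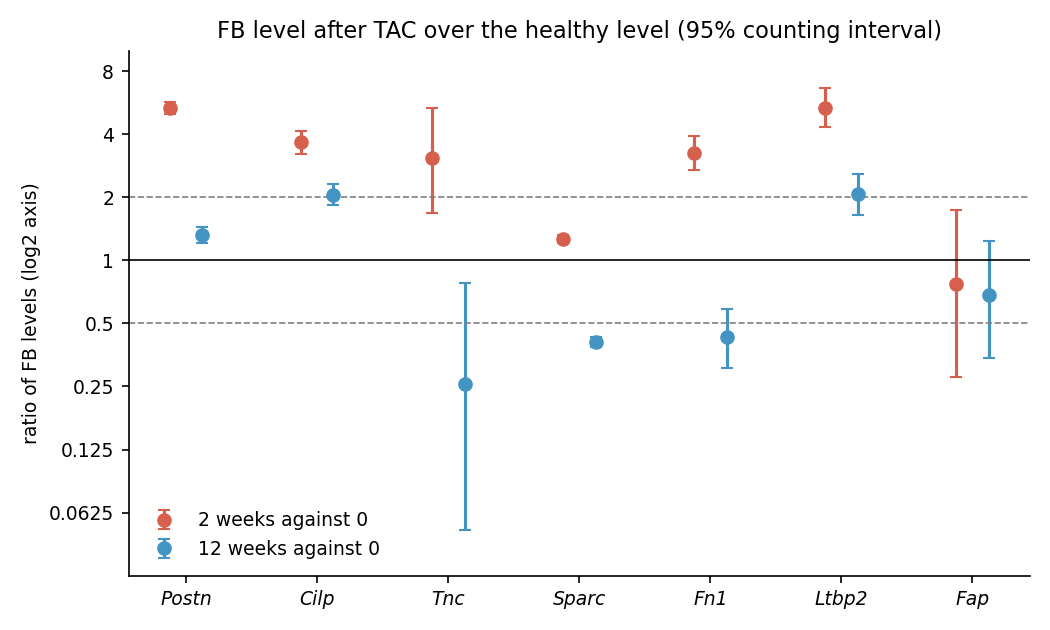
Ratio of the FB level after TAC to the healthy FB level (log2 axis) for the 7 genes at 2 weeks (red) and 12 weeks (blue), with 95% counting intervals; dashed lines mark 2-fold and 0.5-fold. At 2 weeks 5 genes lie above 2-fold, and at 12 weeks *Tnc*, *Sparc* and *Fn1* lie below 0.5-fold while *Cilp* (2.05) and *Ltbp2* (2.06) lie at the upper line.

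In single healthy FBs, *Postn*, *Cilp* and *Ltbp2* were found together more often than the product of their shares. Among 1263 thinned healthy FBs, 96 had both *Postn* and *Cilp*, where the product of the shares gives 40.5, a quotient of 2.37. *Cilp* was present in 30.0% of healthy FBs with *Postn* (25.0% to 35.3%) and in 6.79% of those without (5.27% to 8.58%). *Postn* and *Ltbp2* had a quotient of 2.06 (36 FBs), and *Cilp* and *Ltbp2* one of 2.86 (25 FBs). The quotient of *Postn* and *Fn1* was 1.19 (46 FBs) and that of *Cilp* and *Fn1* was 0.935 (18 FBs), both near 1. *Fap* was found with *Postn* in 6 FBs, where the product gives 10.6. *Sparc*, present in nearly all FBs, had quotients from 1.00 to 1.04 with the other genes.

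In the TAC libraries the quotients within this group of 3 genes were nearer to 1 at the thinning and filters used here. *Postn* itself was found in a larger share of FBs. *Postn* and *Cilp* had a quotient of 1.15 at 2 weeks (26 of 77 FBs) and 1.26 at 12 weeks (18 of 166 FBs). *Postn* and *Ltbp2* had 1.30 (17 FBs) and 1.34 (12 FBs). The latter was the lowest of the values obtained for this pair at 12 weeks, since other thinning and filters gave 1.36 to 1.98, against 2.05 to 2.39 in the healthy library. The quotients of *Cilp* and *Ltbp2* were 1.93 (14 FBs) and 1.86 (13 FBs). Other thinning and filters gave this pair 1.44 to 2.28 at 2 weeks and 1.83 to 2.37 at 12 weeks. Both ranges overlap the 2.26 to 2.81 of the healthy library. With *Postn* in 72.7% of FBs, the quotient at 2 weeks has a low upper bound, so the libraries are not directly comparable on this measure. FBs with all of *Postn*, *Cilp* and *Ltbp2* made up 1.35% of the healthy library (17 FBs; 0.786% to 2.15%), 18.2% at 2 weeks (14 FBs; 10.3% to 28.6%) and 3.01% at 12 weeks (5 FBs; 0.985% to 6.89%). The product of the 3 shares gives 0.175%, 6.845% and 1.40%, so that the observed shares were 7.68, 2.66 and 2.16 times the product. The larger share at 2 weeks came with each gene being found in a larger share of FBs. FBs with none of these 3 genes made up 67.6%, 19.5% and 47.6%. At least 3 of the 6 genes other than *Sparc* were found in 38 healthy FBs (3.01%), 21 FBs at 2 weeks (27.3%) and 10 FBs at 12 weeks (6.02%).

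**Figure D4:**
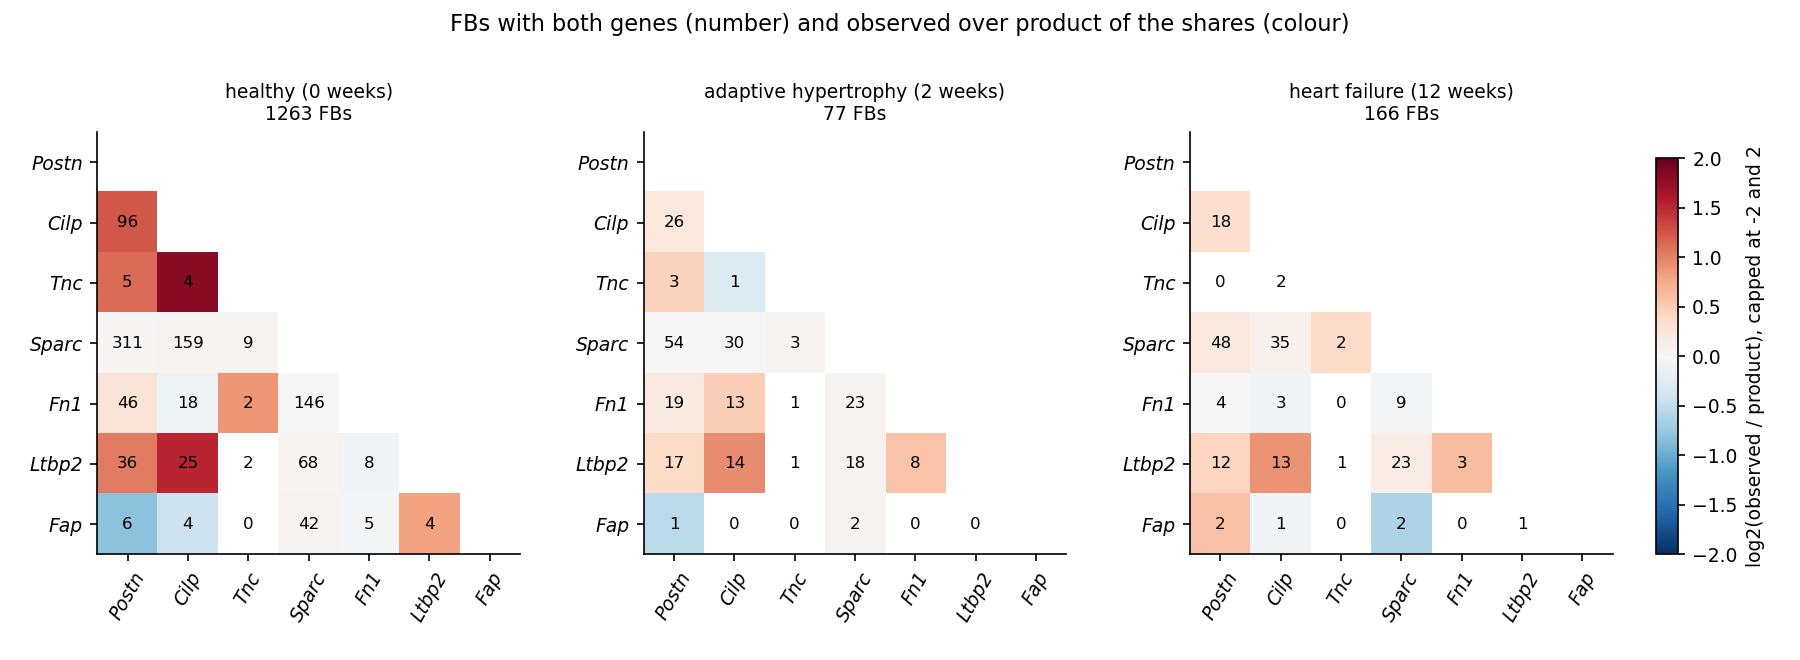
Number of FBs with both genes of a pair (printed) and the log2 quotient of this number and the product of the shares (color), in FBs thinned to 1000 UMIs of the healthy, adaptive hypertrophy and heart failure libraries; pairs with a product under 1 FB are left white. In the healthy library *Postn*, *Cilp* and *Ltbp2* form a group of red fields, with 96, 36 and 25 FBs.

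Levels within FBs gave a similar picture for *Cilp*, while *Sparc* differed by level though hardly by detection in healthy FBs. *Cilp* was 5.87 times higher in healthy FBs with *Postn* than in those without (4.64 to 7.45), 2.77 times at 2 weeks (1.43 to 6.03) and 1.98 times at 12 weeks (1.32 to 2.97). *Ltbp2* was 3.30 times higher in healthy FBs with *Postn* (2.13 to 5.12). At 2 weeks its ratio was 12.4 (2.07 to 503), on 1 UMI in FBs without *Postn*. At 12 weeks it was 2.02 (0.969 to 4.21), with an interval that holds 1. *Sparc* was 1.58 times higher in healthy FBs with *Postn* (1.503 to 1.659), 1.35 times at 2 weeks (1.10 to 1.66) and 2.01 times at 12 weeks (1.60 to 2.51). For *Fn1* the healthy ratio was 1.22 (0.888 to 1.67), with an interval that holds 1. *Col1a1*, a collagen gene of the gate, was 1.30 times higher in healthy FBs with *Postn* (1.19 to 1.43), and *Acta2*, the smooth muscle actin of myofibroblasts, had a ratio of 0.997 (0.593 to 1.62).

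The healthy FBs with *Postn* overlapped with some FB states and not with others, judged by the state markers listed for this comparison. *Thbs4*, a thrombospondin of injured muscle and heart, was found in 46 thinned healthy FBs, of which 33 had *Postn* (quotient 2.83) and 29 had *Cilp* (4.98). *Wif1* and *Comp* were also found with *Postn* more often than the product, in 26 of 58 FBs (1.77) and 33 of 83 FBs (1.57). In contrast, *Hsd11b1*, an enzyme that activates glucocorticoids, was found with *Postn* in 4 of its 104 FBs (0.152), and *Cxcl14*, a chemokine, in 7 of its 91 FBs (0.304). *Inmt*, a methyltransferase, was found in 38 healthy FBs, none of which had *Postn*, where the product gives 9.63. *Pi16*, a marker of adventitial FBs, was found in 860 FBs and had a quotient of 0.987 with *Postn*. The other members differed in their partners, as *Ltbp2* had its highest quotients with *Chad* (6.10; 7 of 21 FBs) and *Comp* (3.53; 16 of 83 FBs), both cartilage matrix genes, and *Fn1* with *Cd248* (1.92; 37 of 160 FBs). At 12 weeks, 10 of 11 FBs with *Thbs4* had *Postn* (2.74), 0 of 10 with *Hsd11b1* and 0 of 13 with *Cxcl14* did, and 5 of 22 with *Inmt* did (0.686). *Wif1* was found with *Postn* in 9 of its 14 FBs there (1.94), and *Comp* in 12 of its 44 (0.823). At 2 weeks, all 9 FBs with *Thbs4* had *Postn*, as did 2 of 2 with *Hsd11b1*, 0 of 3 with *Cxcl14* and 1 of 4 with *Gdf10*. These are few cells.

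Over the 12 combinations of class and phase, the genes outside the group whose log2(CPM + 10) followed *Postn* most closely were *Mrc2* (Pearson's r = 0.992), *Loxl1* (0.979), *Col1a1* (0.978), *Ltbp3* (0.976) and *Col5a3* (0.975), out of 9625 genes. *Mrc2* encodes a collagen uptake receptor, *Loxl1* an elastin and collagen cross-linking enzyme, and *Col1a1* and *Col5a3* collagen chains, and *Col1a1* is also a marker of the FB gate. Within the group, r with *Postn* was 0.954 for *Cilp*, 0.945 for *Ltbp2*, 0.873 for *Fap*, 0.844 for *Tnc*, 0.545 for *Sparc* and 0.320 for *Fn1*. The 12 points come from 3 libraries, and the contrast between FBs and the other classes dominates these values. In single thinned FBs the likeness was weak, with a mean phi coefficient over the libraries of 0.219 for *Pam*, 0.176 for *Fibin*, 0.160 for *Dkk3*, 0.159 for *Vim* and 0.156 for *Aspn*, out of 1978 genes, beside 0.206 for *Cilp* and 0.174 for *Ltbp2*.

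Genes around the members were read in 6 lists, to be set beside the shares of all genes given above (10.4% higher and 12.8% lower at 2 weeks, 6.96% and 6.94% at 12 weeks). Among other matricellular genes, 6 of 20 were at least 2-fold higher in FBs at 2 weeks than in the healthy library and 1 was at most 0.5-fold, and at 12 weeks 4 and 1 were. *Ctgf*, a CCN family gene, had 167, 1466 and 467 CPM, *Wisp2*, another CCN gene, 117, 404 and 190 CPM, and *Comp* 215, 921 and 523 CPM. Like *Cilp*, these genes were highest at 2 weeks and above the healthy level at 12 weeks.

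In the list of elastic fibre and latent TGF-beta genes, to which *Ltbp2* belongs by function, 3 of 17 were at least 2-fold higher at 2 weeks, 1 was at most 0.5-fold, and none passed either limit at 12 weeks. *Ltbp3*, which binds latent TGF-beta, had 90.3, 267 and 150 CPM, and *Eln*, the gene of elastin, 413, 1090 and 328 CPM. *Efemp1*, a fibulin gene, was lower at 2 weeks, with 65.6, 24.6 and 109 CPM, on 7 UMIs at 2 weeks.

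Collagens and the enzymes that process them gave the largest count, with 12 of 25 at least 2-fold higher and 1 at most 0.5-fold at 2 weeks, against 1 and 1 at 12 weeks. Of the 12, *Col1a1* (2.24) and *Col1a2* (2.21) are also markers of the FB gate. Their median log2 ratio was 0.93 at 2 weeks and -0.32 at 12 weeks. The lysyl oxidase genes *Lox* and *Loxl3*, which cross-link collagen and elastin, had 18.7, 207 and 35.9 CPM and 31.2, 162 and 82.7 CPM. *Col16a1*, a fibril-associated collagen chain, had 53.6, 327 and 56.2 CPM, back at the healthy level at 12 weeks.

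Among other genes of activated or contractile FBs, 4 of 24 were at least 2-fold higher and 1 was at most 0.5-fold at 2 weeks, and 0 and 3 were at 12 weeks. *Cthrc1*, a secreted protein of activated FBs, had 22.1, 120 and 6.24 CPM, a course like that of *Tnc* and *Fn1*. *Ddah1*, an enzyme that degrades methylated arginine, had 23.5, 116 and 21.8 CPM. *Acta2* had 78.8, 84.4 and 65.5 CPM, with a ratio of 1.07 at 2 weeks (0.676 to 1.62).

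Of the receptors that bind these matrix proteins, 4 of 14 were at least 2-fold higher in FBs at 2 weeks and 1 was at most 0.5-fold, and 0 of 13 passed either limit at 12 weeks. *Itgb5*, an integrin chain that pairs with the alpha V chain, had 271, 566 and 337 CPM in FBs and 120, 131 and 58.5 CPM in blood cells, against 11.7, 18.3 and 17.7 CPM in ECs. *Itga5*, the fibronectin receptor chain, had 39.4, 91.4 and 32.8 CPM in FBs, and *Itgb8* had 17.8, 49.2 and 18.7 CPM. The proteases beside *Fap* were, of the 6 lists, the only one with more genes lower than higher at 2 weeks, with 6 of 14 at most 0.5-fold and 0 at least 2-fold higher, and 1 and 1 at 12 weeks. *Adamts5*, which cleaves proteoglycans, had 397, 134 and 156 CPM, and *Htra1*, a secreted serine protease, 163, 59.8 and 142 CPM. *Dpp4*, the closest relative of *Fap*, had 56, 0 and 9 UMIs, and its 0 at 2 weeks allows up to 10.5 CPM against 13.5 CPM in the healthy library. Of the 6 proteases at most 0.5-fold at 2 weeks, *Mmp11* and *Prep* likewise rested on 0 and 1 UMIs. Their ratio intervals were 0 to 1.28 and 0.012 to 2.94, and both hold 1. Apart from *Efemp1*, the lower genes of the other lists at 2 weeks also rested on few UMIs. These were *Nov* (2 UMIs), *Col11a1* (1), *Angptl4* (1) and *Itga8* (1), with intervals that hold 1. Among the genes at least 2-fold higher at 2 weeks, the intervals of *Ptprz1* (3 UMIs) and *Wisp1* (5 UMIs) hold 1.

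**Figure D5:**
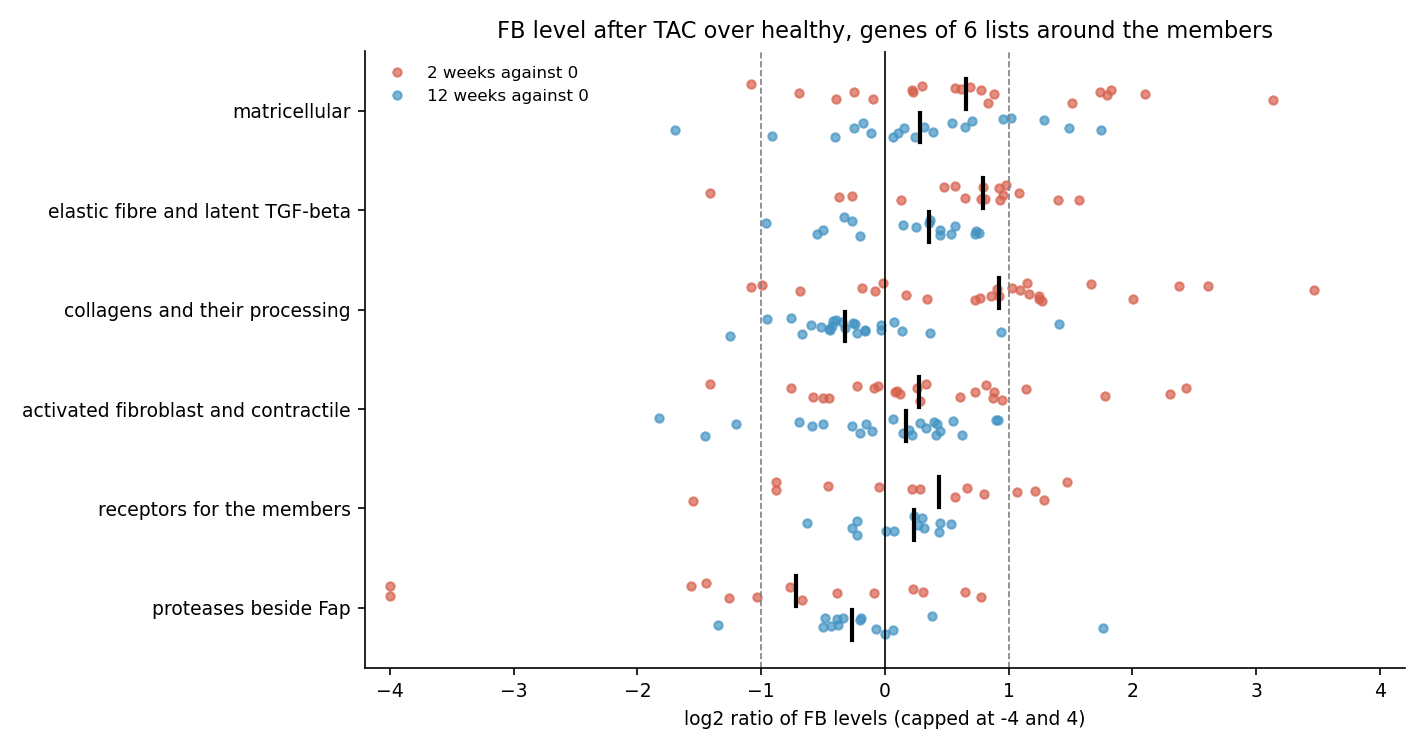
Log2 ratio of FB levels to the healthy library (x axis, capped at -4 and 4) for genes of 6 lists that had 20 or more UMIs in the compared groups together, given in rows, at 2 weeks (red) and 12 weeks (blue); black bars are list medians and dashed lines mark 2-fold and 0.5-fold. At 2 weeks the collagen list has the highest median (0.93) and the protease list the lowest (-0.72), and at 12 weeks all medians lie between -0.32 and 0.36.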

How the data were processed

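Non-CMs of mouse ventricles were measured by droplet-based scRNA-seq (10x Genomics 3′ chemistry), with 1 library per phase. The authors counted UMIs with Cell Ranger 2.0.0 on mm10, and the deposited values are raw counts of 27998 genes in each cell, with no scaling. The phases are those of the labels, and the weeks after TAC are from the article. A minimum of 200 genes per cell took out 8, 8 and 10 cells. The rest held 12287823, 4465929 and 1712728 UMIs at 0, 2 and 12 weeks. Classes came from marker sums, and 380, 149 and 124 cells were left without a class. No doublet caller was run. The 75% rule leaves out cells with markers of several of the 4 classes, but it does not see markers of cell types outside them.

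Levels are UMIs of a gene per 1000000 UMIs of the class, with exact Poisson intervals. Ratios have exact conditional binomial intervals, and shares have Clopper-Pearson intervals. A level of 0 was given the limit of 3 counts. Droplet counts are UMIs, and the intervals and limits cover counting error only. Genes were compared when the groups together had 20 or more UMIs, and a ratio of at least 2 or at most 0.5 was counted. With 1 library per phase no p-values were computed, since cells are not replicates. The ratio step was tested on simulated counts. The thinning step was checked on the library of 2 weeks, and only for the depth it left in each cell.

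Named genes were the 7 members, the 3 genes of each list with the largest change in FBs at 2 weeks (at least 50 UMIs, 1 CPM added), the 5 genes most like *Postn* by each measure, and the FB state markers. Some items are not reported here. Genes named outside this rule were *Acta2*, *Col1a1*, *Col1a2*, *Mmp11*, *Prep*, *Nov*, *Col11a1*, *Angptl4*, *Itga8*, *Ptprz1*, *Wisp1* and those of blood cells. The members and lists were chosen with earlier results of these data known. Computations used Python 3.11.15, numpy 2.4.6, scipy 1.17.1, pandas 2.3.3 and matplotlib 3.10.9. Gene positions are from GENCODE M21, matched by Ensembl identifier for 27645 genes. Alternatives changed the gate, the cell filters, the scaling, the low-count filter, the thinning and the cells left out.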

Additional observations from a re-analysis of the deposited data

Results flagged for a closer look

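*Fn1* differed in direction between cell classes at 12 weeks against the healthy library. Its ratio was 4.42 in blood cells (3.08 to 6.30), 0.428 in FBs (0.306 to 0.586) and 0.467 in mural cells (0.210 to 0.904), and the mural value rests on 9 UMIs at 12 weeks. The difference between the classes was not tested, since each class has 1 library per phase.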

How the results depend on the processing

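Of 374 alternative values for 57 results, 320 stayed within the counting interval of the reported value or, for counts of genes, within 1.5 times of it. Of 112 alternative FB ratios, 110 lay on the same side of 1 as the reported ratio. The alternative that moved most FB ratios left out the 5 FBs with the most UMIs of the gene in each library, which by construction takes 5 of 106 FBs at 2 weeks and 5 of 1263 in the healthy library. It turned the *Tnc* ratio at 2 weeks to 0.875, gave *Postn* ratios of 4.14 and 1.06 at 2 and 12 weeks, left 0 of 7 genes at least 2-fold higher at 12 weeks, and put 1 gene (*Fap*, 0.147) at most 0.5-fold at 2 weeks. *Fap* (0.467) was also counted there when cells over 10% mitochondrial UMIs were left out. The *Postn* ratio at 2 weeks was 5.71 as a mean over cells and 4.96 with scaling by the median ratio. With thinning to 500 UMIs, *Postn* was found in 16.9%, 50.9% and 20.6% of FBs, and without thinning in 36.0% and 42.1% at 0 and 12 weeks. The quotient of *Postn* and *Cilp* was 1.87 in the healthy library without thinning and 1.56 at 2 weeks with thinning to 500 UMIs. Leaving out FBs under 1000 UMIs or the 5 highest blood cells for *Fn1*, and another thinning seed, were chosen after seeing the data. The FBs at 2 weeks are the limit in depth, with 284391 UMIs. No paired analysis was possible because each phase has 1 library.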

Other observations

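In the cells without a class, *Postn* had 128, 306 and 268 CPM at 0, 2 and 12 weeks, and *Sparc* 2982, 2796 and 1710 CPM, below FBs in each library. *Fn1* had 247 CPM (222 to 274), 257 CPM (199 to 326) and 169 CPM (111 to 245), which was above its level in each of the 4 classes at 0 and 12 weeks, although the interval at 12 weeks holds the levels of ECs and blood cells. *Tnc* had 16 UMIs in 4 such cells at 2 weeks, or 60.5 CPM (34.5 to 98.2), beside 16 UMIs in the FBs of that library. *Cilp* and *Ltbp2* had 0 UMIs in them at 2 weeks, which allows up to 11.3 CPM.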
